A study of Homo sapiens with 12 samples.

Results

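Iron uptake, storage and export were followed through 10 genes in HT1080 cells, a long-established line from a human fibrosarcoma. The genes were fixed by symbol as TFRC, STEAP3, SLC11A2, SLC39A14, FTH1, FTL, NCOA4, SLC40A1, ACO1 and IREB2. Each matched 1 row of the 19293 genes in the table, and all 10 were among the 12160 genes with enough counts to be tested. The 12 libraries formed 4 groups of 3: combo cells given IFNγ at 10 ng/ml and irradiated with 20 Gy, RT cells given the radiation alone, IFNG cells given the cytokine alone, and Untreated cells given neither. All were harvested at 24 h. IFNγ is the type II interferon. The sources used here do not say whether replicates came from separate cultures, so each p-value weighs a difference against library-to-library spread that may be technical only.

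Cells take up iron mainly as transferrin bound to the transferrin receptor TFRC. In the endosome STEAP3 reduces the iron, and SLC11A2 (DMT1) or SLC39A14 (ZIP14) carries it into the cytosol. Ferritin, a shell built of FTH1 heavy and FTL light chains, stores what is not used, NCOA4 delivers ferritin to lysosomes for iron release, and SLC40A1 (ferroportin) is the iron exporter. The iron regulatory proteins ACO1 (IRP1) and IREB2 (IRP2) bind a hairpin, the iron responsive element, when iron is scarce. Bound in a 5′ UTR it blocks translation, as in the ferritin mRNAs, and bound in the 3′ UTR it stabilises the mRNA, as in TFRC.

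The hairpins are shown because they divide the members that hold them into those whose mRNA stability is known to follow iron and those whose translation is. The pattern searched was an unpaired C, then 5 bases, then the 6-base loop CAGTGN, then 5 bases that pair with the first 5, with at least 4 of 5 flanking bases paired as well (G may pair with T, transcript strand only). Coding transcripts of 9 members in GENCODE release 29 (GRCh38) held 7 matches in 4 members. Each is printed with capitals marking the loop, and the TFRC elements are numbered along the mRNA.
TFRC element 1: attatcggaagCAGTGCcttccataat
TFRC element 2: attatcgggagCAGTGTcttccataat
TFRC element 3: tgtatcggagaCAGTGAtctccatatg
TFRC element 4: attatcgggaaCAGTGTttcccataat
FTH1: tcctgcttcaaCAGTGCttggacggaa
FTL: tcttgcttcaaCAGTGTttggacggaa
SLC40A1: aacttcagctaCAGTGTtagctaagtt
The TFRC elements lie in the 3′ UTR on the minus strand, at chr3:196050980-196051006, chr3:196050576-196050602, chr3:196050511-196050537 and chr3:196050464-196050490. The other 3 lie in 5′ UTRs, at chr11:61967575-61967601 (minus strand) in FTH1, chr19:48965336-48965362 (plus strand) in FTL and chr2:189580662-189580688 (minus strand) in SLC40A1. Of 19644 coding genes, 27 (0.137%) held the pattern at any position of their principal transcript, coding sequence included. Each TFRC match was in 3 of the gene's 4 coding transcripts, the FTH1 match in 7 of 8 and the SLC40A1 match in 1 of 5. FTL has 1 coding transcript. Counts per gene do not show which transcripts were present. A match is a description of letters and not a measured binding site. The pattern leaves out hairpins with other bulges, loops or weaker stems. A member without a match, such as SLC11A2, may thus still hold an element, and a member with matches, such as TFRC, may hold more.

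Library totals were 10254314 to 10956421 counts in combo, 9675126 to 10084853 in RT, 10263803 to 11010656 in IFNG and 9762772 to 10550510 in Untreated cells. Mesenchymal markers summed to between 7430 and 8100 CPM in every library, and epithelial markers to at most 4.72 CPM. Of the mesenchymal markers VIM was at 5190 CPM in Untreated cells, but S100A4 was at 1.57 CPM and THY1 near 0. RT replicate 2 stood apart in traces of other genes: it held 304 counts of the globin HBB, against 10 and 7 in the other RT libraries, and 59 counts of GBP5, against 10 and 3. Summed over 4 erythroid markers, RT libraries held 3.21 to 34.4 CPM and the other 9 libraries 1.88 to 4.72 CPM. Over 6 immune markers the sums were 0.706 to 5.22 CPM in RT libraries and 0.188 to 1.19 CPM in the other 9. LYZ, 1 of these, had 14 counts in RT replicate 2, against 4 and 4 in the other RT libraries. The RT counts and calls below that change without this library are given without it as well. CPM means counts per 1000000 of the TMM-scaled library total throughout.

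Per kb of principal transcript, FTL was the most abundant member in Untreated cells, at 1011 ± 56.2 CPM per kb (SD, n = 3). TFRC followed at 228 ± 4.81, then NCOA4 at 107 ± 3.98, FTH1 at 95.5 ± 5.5, SLC39A14 at 70.8 ± 0.967 and STEAP3 at 54.2 ± 2.61 CPM per kb. The regulators IREB2 (17.4 ± 0.31) and ACO1 (16.5 ± 0.108) and the transporter SLC11A2 (9.12 ± 0.581 CPM per kb) were lower. SLC40A1, at 0.284 ± 0.143 CPM per kb, rested on 6, 9 and 15 counts. GENCODE names 25 pseudogene copies of FTH1, 16 of FTL and 3 of NCOA4, and how the deposited counts treated reads shared with them is not given in the sources used here, so the levels of these genes, and that of FTH1 against FTL, are uncertain.

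**Figure D1:**
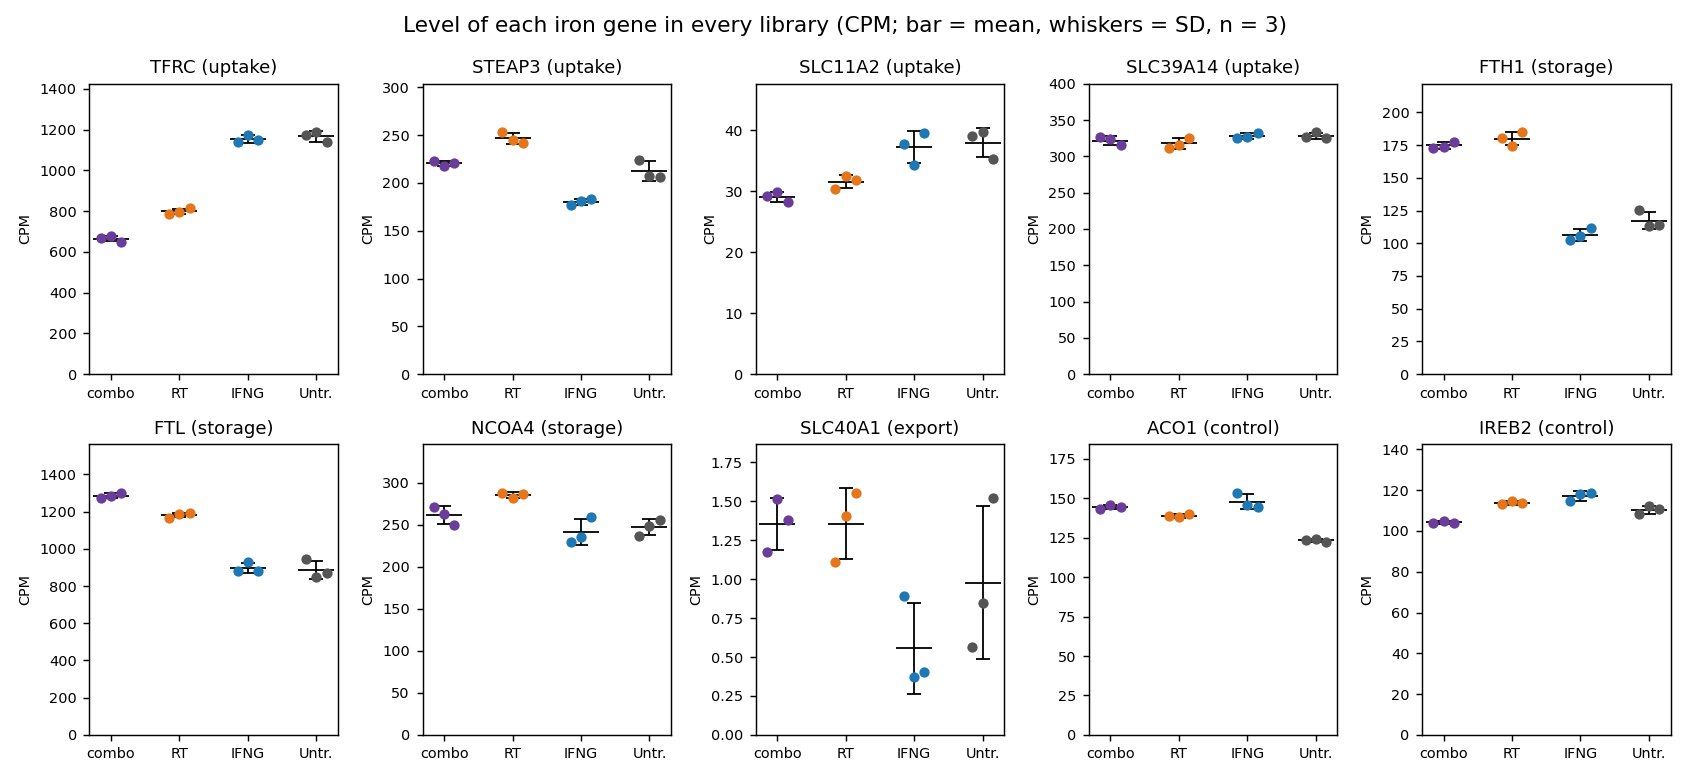
Level of each member in every library, in CPM on linear axes that start at 0, with 1 panel per gene and groups in the order combo, RT, IFNG and Untreated. Points are libraries, the bar is the mean and whiskers are the SD (n = 3); TFRC lies at 649 to 814 CPM in the 6 irradiated libraries and at 1139 to 1188 CPM in the 6 unirradiated ones.

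The comparison of RT with Untreated cells asked what radiation did to these genes without IFNγ. The receptor TFRC and the transporter SLC11A2 fell, both ferritin chains, NCOA4, STEAP3 and ACO1 rose, and SLC39A14, SLC40A1 and IREB2 were not called. Calls are those of edgeR's quasi-likelihood test where the Benjamini-Hochberg adjusted p, taken over all 12160 genes, was under 0.05. Thus 5 of 10 members were called higher and 2 lower, beside 27.9% higher and 28.2% lower among all genes in the test (56.1% in either direction). Against so high a background, a count of 7 in 10 is no result about the members, and the description rests on the single genes. Without RT replicate 2 the counts were again 5 and 2. The library ranges below are description only, and the share of all tested genes whose groups do not overlap was not counted. In these bulk libraries, less RNA of a gene per cell and fewer cells that make it cannot be told apart.

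TFRC had 787, 795 and 814 CPM in RT libraries, against 1172, 1188 and 1139 CPM in Untreated libraries. The ranges lay far apart, and the log2 fold change was -0.55 ± 0.0276 (SE), a level 0.685 times that of Untreated cells (adjusted p = 1.53e-24, edgeR). SLC11A2, the endosomal ferrous iron carrier, had 30.4, 32.5 and 31.8 CPM in RT libraries, against 39.0, 39.7 and 35.2 CPM in Untreated libraries. Every RT library was below every Untreated one, at -0.27 ± 0.0683 on the log2 scale (adjusted p = 0.00069, edgeR).

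FTH1, the ferritin chain that oxidises ferrous iron, had 181, 175 and 185 CPM in RT libraries, against 125, 113 and 114 CPM in Untreated libraries. FTL, the light chain that aids mineral formation in the shell, had 1168, 1186 and 1192 CPM in RT libraries, against 943, 848 and 872 CPM in Untreated libraries. Neither gene's groups overlapped. The estimate was larger for the heavy chain, with log2 fold changes of 0.62 ± 0.0414 for FTH1 (1.53-fold, adjusted p = 2.73e-19, edgeR) and 0.41 ± 0.03 for FTL (1.33-fold, adjusted p = 1.98e-17, edgeR). The difference between the chains was not tested.

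NCOA4, the ferritin receptor of autophagy, had 288, 282 and 286 CPM in RT libraries, against 237, 249 and 255 CPM in Untreated libraries (log2 fold change 0.21 ± 0.0376, adjusted p = 4.69e-06, edgeR). STEAP3, the endosomal ferric reductase, had 253, 245 and 242 CPM in RT libraries, against 224, 207 and 206 CPM in Untreated libraries (0.22 ± 0.0358, adjusted p = 7.92e-07, edgeR). Both sets of RT libraries lay wholly above the Untreated ones, so within the uptake group STEAP3 moved opposite to TFRC and SLC11A2. ACO1, which is a cytosolic aconitase when it carries an iron-sulfur cluster and an RNA binding protein when it does not, had 139, 138 and 140 CPM in RT libraries, against 123, 124 and 123 CPM in Untreated libraries. This small shift of 0.17 ± 0.0396 exceeded the spread (adjusted p = 0.000213, edgeR).

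SLC39A14, a carrier of non-transferrin iron, zinc and manganese, ranged from 312 to 326 CPM in RT libraries and from 325 to 334 CPM in Untreated libraries, and IREB2 from 113 to 115 CPM in RT libraries and from 108 to 112 CPM in Untreated libraries. Neither was called, with log2 fold changes of -0.05 ± 0.0318 (adjusted p = 0.211, edgeR) and 0.04 ± 0.0414 (adjusted p = 0.401, edgeR). SLC40A1 had 11, 14 and 16 counts in RT libraries, against 6, 9 and 15 counts in Untreated libraries. These overlap, and a change in the exporter was not detectable at this depth (0.49 ± 0.361, adjusted p = 0.25, edgeR).

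Of the 4 members with a match to the hairpin pattern, TFRC, with 3′ elements, was lower. FTH1 and FTL, with a 5′ element, were higher, and SLC40A1, with a 5′ element in 1 of its 5 coding transcripts, was not called. Among members searched without a match, SLC11A2 was lower, NCOA4, STEAP3 and ACO1 were higher, and IREB2 was not called. Of 23 other genes with the pattern, 14 were tested and 5 were called higher and 3 lower in RT cells, a share close to the background of 56.1%. The region of the match in those genes was not recorded, so it may lie outside the UTRs. Members and pattern were chosen with earlier results known, so this arrangement is a description with no test.

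**Figure D2:**
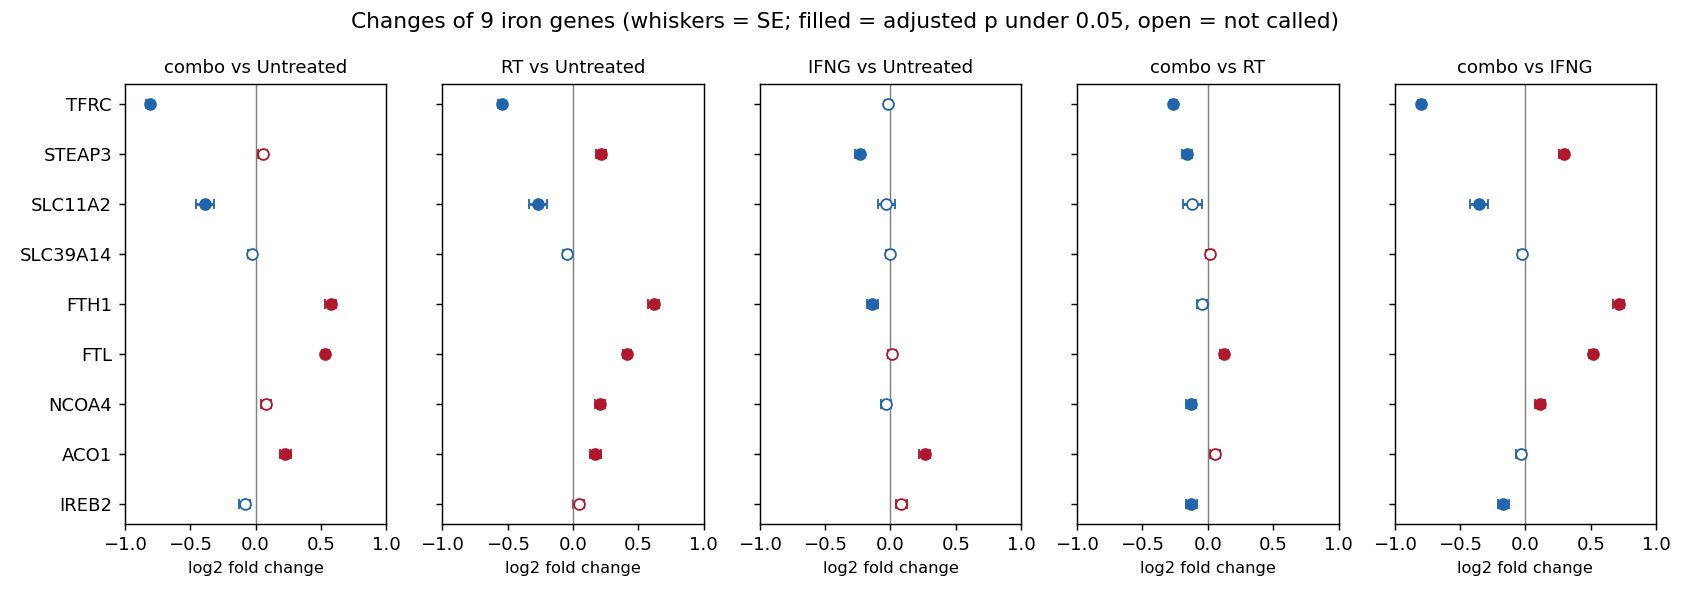
Log2 fold changes of 9 members (SLC40A1, with 4 to 16 counts per library, is left out) in 5 comparisons, 1 panel each, with genes down the page by role. Whiskers are SE, red marks higher and blue lower, and filled points passed the test; TFRC was called lower and FTL higher in every panel except IFNG against Untreated.

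IFNG cells set against Untreated cells show the cytokine on its own. ACO1 rose, STEAP3 and FTH1 fell, and 7 of the 10, TFRC and FTL among them, were not called. The 1 member higher and 2 lower compare with 15% and 14.1% of all tested genes (29.1% in either direction). This count is near the background and is no result about the members.

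ACO1 had 154, 146 and 145 CPM in IFNG libraries, well above the 123, 124 and 123 CPM of Untreated libraries, a log2 fold change of 0.26 ± 0.0392 (1.2-fold, adjusted p = 2.46e-07, edgeR). STEAP3 had 177, 181 and 183 CPM in IFNG libraries, against 224, 207 and 206 CPM in Untreated libraries, at -0.24 ± 0.0369 (0.849-fold, adjusted p = 5.65e-07, edgeR). The groups of both genes stayed apart. FTH1 had 103, 106 and 112 CPM in IFNG libraries, which lay just below the 125, 113 and 114 CPM of Untreated libraries. Its change of -0.14 ± 0.044 was called (adjusted p = 0.0122, edgeR), but not without Untreated replicate 1 (-0.09, adjusted p = 0.144) or IFNG replicate 1 (-0.12, adjusted p = 0.0634).

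TFRC had 1139, 1175 and 1149 CPM in IFNG libraries, overlapping the Untreated ones (-0.015 ± 0.0272, adjusted p = 0.73, edgeR). FTL had 879, 931 and 881 CPM in IFNG libraries, also within the Untreated range (0.015 ± 0.0302, adjusted p = 0.76, edgeR). NCOA4 (-0.04 ± 0.0381), SLC11A2 (-0.03 ± 0.0659), SLC39A14 (-0.001 ± 0.0317) and IREB2 (0.08 ± 0.0411) were not called on the log2 scale. SLC40A1 had 9, 4 and 4 counts in IFNG libraries, against 6, 9 and 15 counts in Untreated libraries, and the groups overlapped (-0.79 ± 0.443, adjusted p = 0.185, edgeR).

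With both treatments, TFRC stood lower and FTL higher than in any other group. In combo cells against Untreated cells, 3 members rose (FTH1, FTL, ACO1) and 2 fell (TFRC, SLC11A2), where 30.9% and 31.2% of all tested genes did (62.1% in either direction). The 5 in 10 called are no more than the background. This comparison shares its Untreated libraries with the preceding ones. TFRC had 670, 676 and 649 CPM in combo libraries, against 1139 to 1188 CPM in Untreated libraries. All 3 combo libraries lay far below, at a fitted 0.57 times the Untreated level (log2 fold change -0.81 ± 0.0278, adjusted p = 1.09e-32, edgeR).

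FTL had 1273, 1283 and 1301 CPM in combo libraries, against 848 to 943 CPM in Untreated libraries (0.53 ± 0.0299, 1.45-fold, adjusted p = 3.48e-22, edgeR). FTH1 had 173, 174 and 178 CPM in combo libraries, against 113 to 125 CPM in Untreated libraries (0.57 ± 0.0413, 1.49-fold, adjusted p = 3.12e-18, edgeR). Both chains thus stood above every Untreated library by a similar factor. SLC11A2 had 29.2, 29.9 and 28.2 CPM in combo libraries, against 35.2 to 39.7 CPM in Untreated libraries, at -0.39 ± 0.0687 (adjusted p = 2.41e-06, edgeR). ACO1 had 143, 146 and 145 CPM in combo libraries (0.23 ± 0.0392, adjusted p = 1.28e-06, edgeR). STEAP3 (0.06 ± 0.036), NCOA4 (0.08 ± 0.0378), IREB2 (-0.08 ± 0.0416), SLC39A14 (-0.03 ± 0.0316) and SLC40A1 (0.49 ± 0.357) were not called. NCOA4 had an adjusted p of 0.0601 in edgeR and passed under 5 of the 18 alternative settings.

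Ratios within a library do not depend on its total. TFRC counts over summed FTH1 and FTL counts were 0.463, 0.464 and 0.439 in combo libraries, 0.583, 0.584 and 0.591 in RT libraries, 1.16, 1.13 and 1.16 in IFNG libraries and 1.1, 1.24 and 1.16 in Untreated libraries. The irradiated libraries lay wholly below the unirradiated ones, and combo lay below RT. FTL counts over FTH1 counts averaged 7.36 ± 0.0252 in combo, 6.57 ± 0.194 in RT, 8.42 ± 0.468 in IFNG and 7.56 ± 0.0681 in Untreated cells (SD, n = 3). The lowest light chain share was in RT cells and the highest in IFNG cells. ACO1 counts over IREB2 counts averaged 1.39 ± 0.00577 in combo, 1.22 ± 0.0208 in RT, 1.26 ± 0.0666 in IFNG and 1.12 ± 0.0173 in Untreated cells, highest where both treatments were given. No test was made on these ratios.

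**Figure D3:**
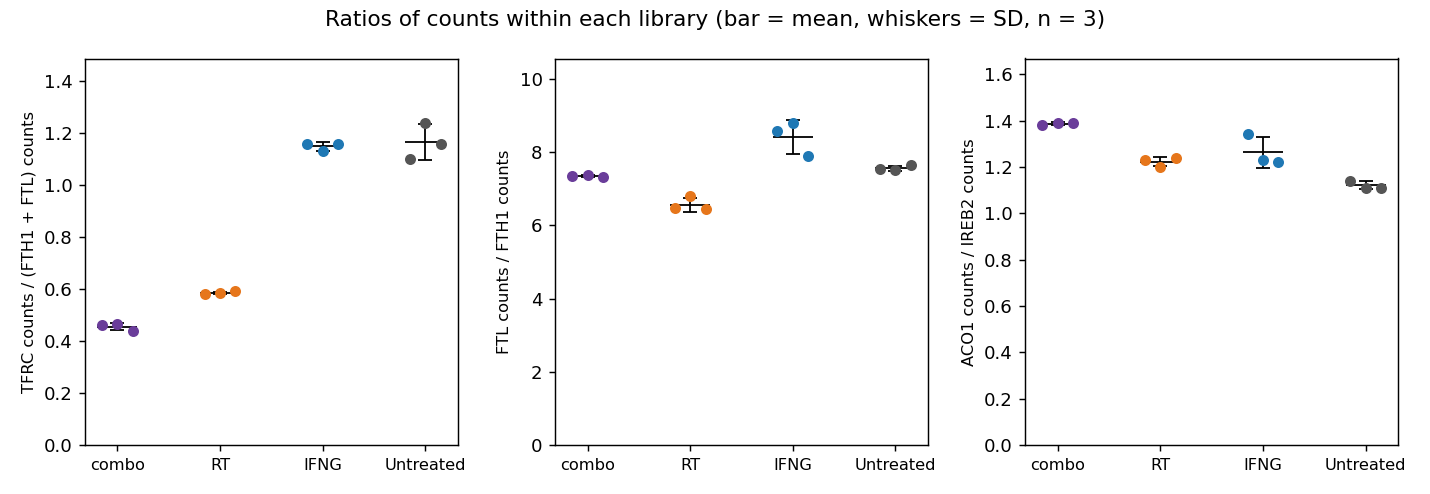
Ratios of raw counts within each library, on linear axes from 0, with groups in the order combo, RT, IFNG and Untreated. Points are libraries, bars are means and whiskers are SD (n = 3); in the left panel the irradiated libraries lie between 0.439 and 0.591 and the unirradiated ones between 1.1 and 1.24.

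The comparison of combo with RT cells asked what IFNγ did in irradiated cells. TFRC fell further, FTL rose further, and STEAP3, NCOA4 and IREB2 fell, so 1 member was higher and 4 lower against 14.5% and 12.4% of all tested genes (26.9% in either direction). The 5 in 10 called exceed that share, with no test of the excess. TFRC had 670, 676 and 649 CPM in combo libraries, against 787, 795 and 814 CPM in RT libraries. The groups were well apart (-0.26 ± 0.0281, 0.833-fold, adjusted p = 1.86e-11, edgeR), and the change was -0.27 without RT replicate 2. FTL had 1273, 1283 and 1301 CPM in combo libraries, against 1168, 1186 and 1192 CPM in RT libraries, a small gain of 0.12 ± 0.0296 with no overlap (adjusted p = 0.00116, edgeR).

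STEAP3 had 223, 218 and 220.4 CPM in combo libraries, against 253, 245 and 242 CPM in RT libraries (-0.16 ± 0.0356, adjusted p = 0.000342, edgeR). NCOA4 had 272, 263 and 250.4 CPM in combo libraries, against 288, 282 and 286 CPM in RT libraries (-0.13 ± 0.0374, adjusted p = 0.00685, edgeR), a call that ended without combo replicate 3 (-0.10, adjusted p = 0.0794). IREB2, the iron regulatory protein that is itself degraded when iron is plentiful, had 104, 105 and 104 CPM in combo libraries, against 113, 115 and 114 CPM in RT libraries (-0.13 ± 0.0416, adjusted p = 0.0176, edgeR). All 3 genes had every combo library below every RT library. How many of all tested genes separate in this way was not counted, so the separation adds nothing to the calls. The IREB2 call ended in DESeq2 (adjusted p = 0.0523) and without RT replicate 2 (-0.12, adjusted p = 0.0624). FTH1 (-0.04 ± 0.0393), ACO1 (0.06 ± 0.0387), SLC11A2 (-0.12 ± 0.0717), SLC39A14 (0.017 ± 0.0318) and SLC40A1 (-0.001 ± 0.332) were not called.

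Radiation in cells that also had IFNγ, combo against IFNG, raised 5 members and lowered 3, where 30.3% and 30.4% of all tested genes were called (60.7% in either direction), so this count too is not far from the background. TFRC (-0.80 ± 0.0279), SLC11A2 (-0.35 ± 0.0692) and IREB2 (-0.17 ± 0.0414) fell, and FTH1 (0.71 ± 0.0419), FTL (0.52 ± 0.0299), STEAP3 (0.29 ± 0.0367) and NCOA4 (0.12 ± 0.0379) rose. The NCOA4 call ended without IFNG replicate 2 (0.10, adjusted p = 0.0517) or combo replicate 1 (0.09, adjusted p = 0.0694). SLC40A1 had 12, 16 and 15 counts in combo libraries, against 9, 4 and 4 counts in IFNG libraries. The groups did not overlap, and the exporter was called at 1.28 ± 0.408 (adjusted p = 0.00573, edgeR). As libraries were left out in turn the estimate ran from 1.05 to 1.79, with adjusted p up to 0.0421 (edgeR). These are few counts, and the share of all tested genes whose groups do not overlap was not counted. ACO1 (-0.03 ± 0.0384) and SLC39A14 (-0.03 ± 0.0317) were not called.

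The interaction subtracts the log2 fold change of IFNG against Untreated from that of combo against RT, and tested whether the treatments added up on the log scale. It was called for 3 of 10 members, TFRC, ACO1 and IREB2, against 2.38% of all tested genes, and all 3 were negative (0.995% of tested genes were called negative and 1.38% positive). The excess was not tested, and the members were chosen with earlier results known. For TFRC, IFNγ gave -0.26 ± 0.0281 in irradiated cells and -0.015 ± 0.0272 in unirradiated cells, a difference of -0.25 ± 0.0391 (adjusted p = 2.58e-05, edgeR). This call held in DESeq2 (adjusted p = 6.02e-07) and in each of the 12 fits that left out 1 library, with differences from -0.26 to -0.23. ACO1 rose with IFNγ by 0.26 ± 0.0392 in unirradiated cells and stood at 0.06 ± 0.0387 in irradiated cells, a difference of -0.20 ± 0.0551 (adjusted p = 0.0302, edgeR).

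IREB2 stood at -0.13 ± 0.0416 with IFNγ in irradiated cells and at 0.08 ± 0.0411 in unirradiated cells, a difference of -0.21 ± 0.0585 (adjusted p = 0.0367, edgeR). With library totals in place of TMM the IREB2 call ended (-0.19, adjusted p = 0.0576, edgeR) and ACO1 was still called (-0.19, adjusted p = 0.0477, edgeR). The ACO1 and IREB2 calls ended in DESeq2 (adjusted p = 0.107 and 0.14). They were kept in 4 and 1 of the 12 fits that left out a library, although both differences stayed negative. TFRC was then the 1 member called without Untreated replicate 3, without IFNG replicate 1 and without any single RT or combo library. FTL (0.11 ± 0.0423, adjusted p = 0.201), FTH1 (0.10 ± 0.0591, adjusted p = 0.468), NCOA4 (-0.09 ± 0.0534), STEAP3 (0.08 ± 0.0513), SLC11A2 (-0.09 ± 0.0974), SLC39A14 (0.018 ± 0.0449) and SLC40A1 (0.79 ± 0.554) were not called by edgeR.

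**Figure D4:**
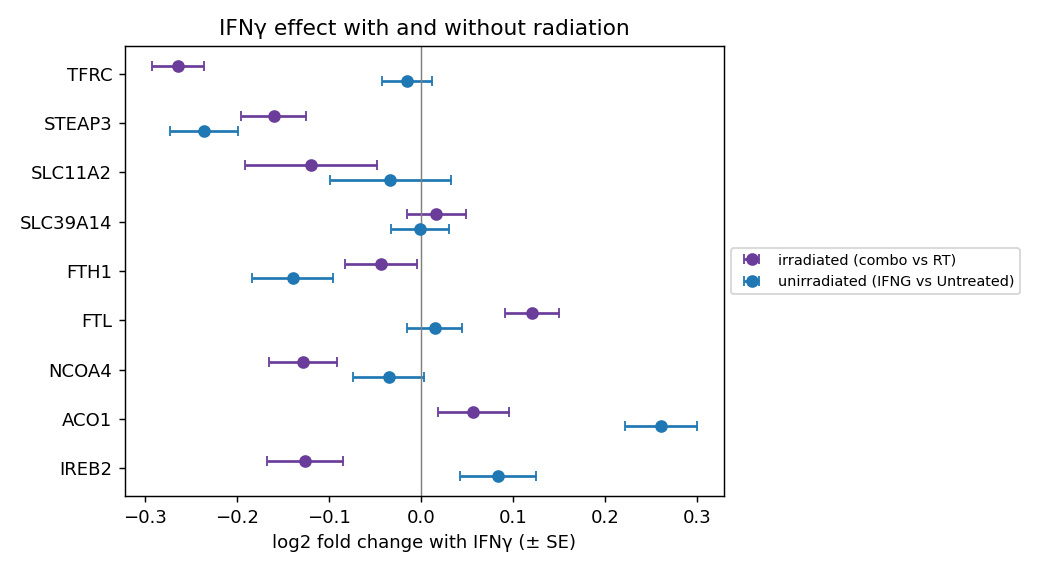
Log2 fold change with IFNγ for 9 members, in irradiated cells (combo against RT, purple, upper point of each pair) and in unirradiated cells (IFNG against Untreated, blue, lower point); whiskers are SE and the vertical line is no change. TFRC lies at -0.26 and -0.015, ACO1 at 0.06 and 0.26, and IREB2 at -0.13 and 0.08.

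The pathway around the members was read from 92 other iron genes in 5 lists, of which 78 were tested. In RT cells 22 of the 78 were higher and 21 lower, beside 27.9% and 28.2% of all tested genes, with a median log2 fold change of 0.07, beside 0.0061 over all genes tested. In IFNG cells 11 were higher and 13 lower, beside 15% and 14.1% of all tested genes (median -0.012, beside -0.0052 over all genes). In combo against RT cells 11 were higher and 9 lower, beside 14.5% and 12.4% of all tested genes (median -0.017, beside -0.0078 over all genes). In each of these 3 comparisons the share of the 78 that was called is close to the background, so the counts are no result about iron genes as a group. Transferrin (TF), the second transferrin receptor TFR2, ceruloplasmin (CP), hephaestin (HEPH) and hepcidin (HAMP), which governs ferroportin, had too few counts to be tested.

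Among 10 tested genes of other uptake routes and reductases, 5 rose and 2 fell in RT cells (median 0.16), of so few genes not far from the 56.1% of all tested genes called in either direction. LRP1, which takes up heme bound to hemopexin among many ligands, averaged 369 ± 14.6 CPM in RT cells and 105 ± 1.99 CPM in Untreated cells (SD, n = 3; log2 fold change 1.82 ± 0.0411). The ferric reductase CYBRD1 averaged 56.9 ± 2.59 CPM in RT cells and 31.3 ± 2.94 CPM in Untreated cells (0.86 ± 0.0666). STEAP1 (-0.89 ± 0.0954) and EXOC6 (-0.68 ± 0.0902), an exocyst subunit tied to transferrin recycling in mice, fell. In IFNG cells EXOC6 was at 0.24 ± 0.0786, SLC39A8 at -0.14 ± 0.0538 and LRP1 at -0.15 ± 0.0474. Those 3 calls ended under some of the alternatives, as did that of CYBRD1 in combo against RT cells (-0.19 ± 0.061).

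Of 6 tested storage, chaperone and export genes, 2 rose and 2 fell in RT cells (median 0.02), again not far from the background of 56.1%. The chaperones PCBP1 and PCBP2, which hand iron to ferritin, fell by 0.56 ± 0.0345 and 0.44 ± 0.0293 on the log2 scale while both ferritin chains rose. PCBP1 averaged 186 ± 5.37 CPM in RT cells and 275 ± 6.53 CPM in Untreated cells. PCBP4 (0.45 ± 0.0534) and the iron-sulfur glutaredoxin GLRX3 (0.20 ± 0.0395) rose. In combo against RT cells PCBP1 was at 0.15 ± 0.0353 and GLRX3 at -0.17 ± 0.0393, and in IFNG cells PCBP4 was at -0.27 ± 0.058 and PCBP1 at 0.09 ± 0.033. The call of PCBP1 in IFNG cells ended with library totals (0.03, adjusted p = 0.508) and in DESeq2 (adjusted p = 0.0731).

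Of 12 tested control genes, 4 rose and 3 fell in RT cells (median 0.04), close to the background of 56.1%. The hypoxia factors EPAS1 (0.70 ± 0.0438) and HIF1A (0.54 ± 0.0365) rose, and SMAD4 (-0.35 ± 0.0474) and the hepcidin inducer BMP6 (-0.49 ± 0.105) fell. In combo cells EPAS1 averaged 183 ± 3.48 CPM, against 153 ± 9.11 in RT, 112 ± 4.56 in IFNG and 93.9 ± 2.27 CPM in Untreated cells. BMP6 averaged 7.91 ± 1.05 CPM in combo, 12.2 ± 1.6 in RT, 12.1 ± 1.15 in IFNG and 17.1 ± 1.22 CPM in Untreated cells. FBXL5, the ubiquitin ligase subunit that binds iron and marks IREB2 for degradation, was singled out after its values were seen. It was higher in combo against Untreated (0.46 ± 0.0516), RT against Untreated (0.28 ± 0.053), IFNG against Untreated (0.15 ± 0.0536), combo against RT (0.18 ± 0.0503) and combo against IFNG cells (0.31 ± 0.0508). This pattern is not particular to FBXL5, as HIF1A and EPAS1 were called higher in the same comparisons with larger log2 fold changes.

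All 20 heme genes were tested, with 7 higher and 5 lower in RT cells and 1 higher and 6 lower in IFNG cells (medians 0.12 and -0.04). In either direction both counts are near the background, 56.1% of all tested genes in RT cells and 29.1% in IFNG cells. By direction, 15% of all tested genes were higher and 14.1% lower in IFNG cells, so the heme calls there leaned to lower. In combo against RT cells 2 heme genes were higher and 6 lower, beside 14.5% and 12.4% of all tested genes. Neither lean was tested. HMOX1, the heme oxygenase that frees iron from heme, averaged 19.2 ± 0.822 CPM in combo, 38.8 ± 0.706 in RT, 11.4 ± 0.63 in IFNG and 26.98 ± 2.44 CPM in Untreated cells. It rose in RT cells (0.52 ± 0.0703) and fell in IFNG cells (-1.24 ± 0.0901) and in combo against RT cells (-1.02 ± 0.0751). Of the biliverdin reductases, BLVRB rose in RT cells (0.53 ± 0.111) and BLVRA in IFNG cells (0.36 ± 0.0849) and in combo against RT cells (0.51 ± 0.0827). The heme exporter FLVCR1 (-0.53 ± 0.0959) and the heme-binding PGRMC1 (-0.51 ± 0.0498) fell in RT cells. FECH, which inserts iron into heme, was at -0.25 ± 0.0678 in combo against RT cells.

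All 30 genes of mitochondrial iron and iron-sulfur clusters were tested, with 4 higher and 9 lower in RT cells and 4 higher and 3 lower in IFNG cells (medians 0.03 and -0.02). Both shares lie below the background of 56.1% in RT cells and 29.1% in IFNG cells, with no test of the difference. The scaffold ISCU averaged 80.1 ± 3.3 CPM in RT cells and 41.2 ± 0.238 CPM in Untreated cells (0.96 ± 0.0566), and FDXR, the ferredoxin reductase and p53 target, was at 2.63 ± 0.073. The chaperone HSPA9 (-0.43 ± 0.0294) and NUBP1 (-0.49 ± 0.101), which helps build cytosolic clusters, fell. IFNγ raised the mitochondrial iron importer SLC25A28 in unirradiated cells (0.98 ± 0.0904) and in irradiated cells (1.06 ± 0.101), and likewise NUBP1 (0.71 ± 0.0848 and 0.69 ± 0.0982). GLRX5 (-0.20 ± 0.0548) fell in IFNG cells. The other importer, SLC25A37, was the 1 gene of the 78 with a called interaction, beside 2.38% of all tested genes (0.28 ± 0.0548, adjusted p = 0.00114, edgeR): it was at 0.18 ± 0.0392 in combo against RT and at -0.10 ± 0.0383 in IFNG against Untreated cells.

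**Figure D5:**
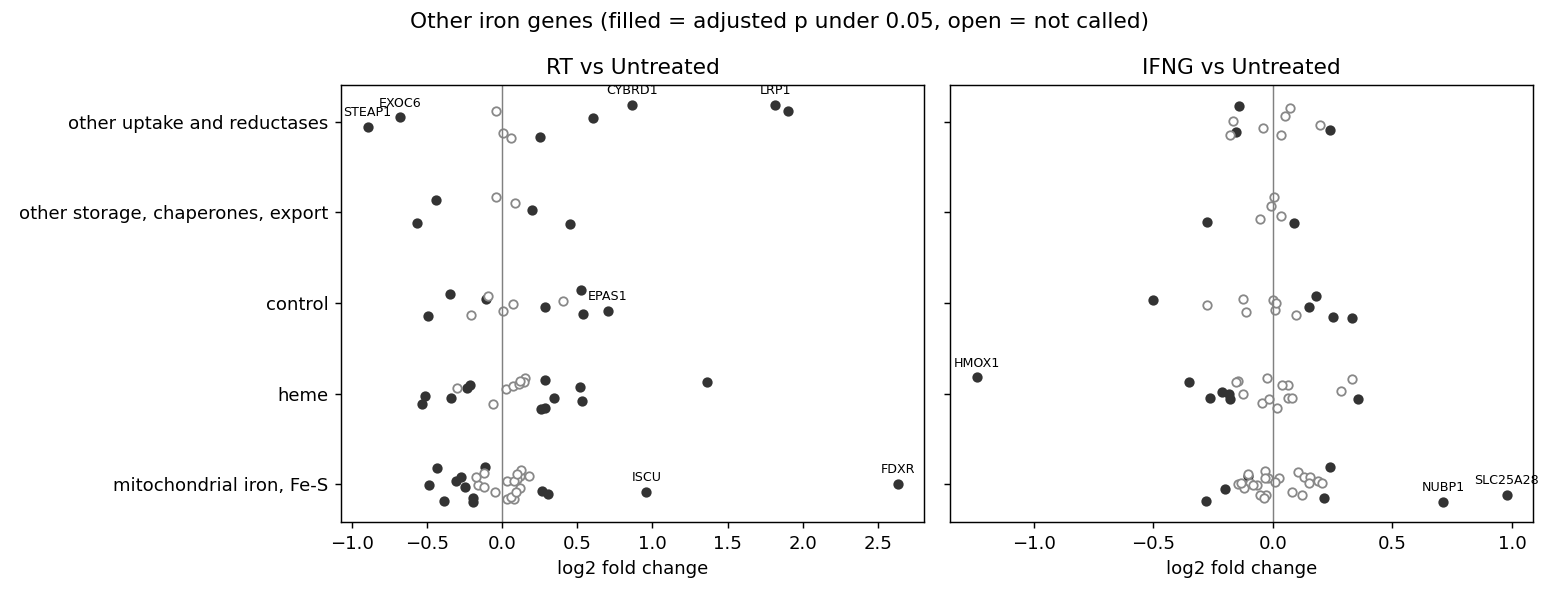
Log2 fold changes of the 78 other tested iron genes in RT against Untreated (left) and IFNG against Untreated cells (right), with 1 row of points per list and random vertical scatter for legibility. Filled points passed the test and open points did not; named points lie beyond 0.65 in size, and unnamed filled points that far out had low counts. FDXR stands at 2.63 and LRP1 at 1.82 on the left, and HMOX1 at -1.24 on the right.

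The 2 members with the widest range of group mean log2 CPM were SLC40A1 (1.11) and TFRC (0.81), followed by FTH1 (0.76) and FTL (0.54), while SLC39A14 was flattest (0.05). Over the 12 libraries, which fall into 4 treatment groups that all genes share, the genes most like TFRC in log2 CPM were the amino acid carrier SLC6A15 (Pearson's r = 0.993), AZIN1 (0.991), which restrains antizyme in polyamine control, and RPL7L1 (0.991), and the most opposite was ALDH3B1 (-0.992), out of 5966 candidates. SLC6A15 averaged 43.3 ± 1.8 CPM in combo, 53.0 ± 1.21 in RT, 78.3 ± 2.8 in IFNG and 80.7 ± 5.94 CPM in Untreated cells, the same order of groups as TFRC. For SLC40A1 the nearest were TSC1 (0.915), DIP2A (0.895) and WIPI2 (0.877) and the most opposite SNRNP200 (-0.94). Those values rest on 4 to 16 counts of SLC40A1 per library.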

How the data were processed

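RNA of 12 HT1080 libraries was sequenced after ribosomal RNA removal as stranded paired-end libraries, per the labels' protocols. The authors deposited raw counts per gene in 1 table. The build hg19 and the tools TopHat2 2.0.13, Cuffdiff 2.2.1, Cufflinks and FastQC 0.11.3 are named per the submitters' processing notes. Which tool counted, whether by strand and on which annotation, is not given in the sources used here, so reads of overlapping or antisense genes cannot be told apart. Columns were matched to libraries by title, and the shifted names of the first 4 columns were read by content.

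Counts were fitted in edgeR 4.0.16 (R 4.3.3) after filterByExpr and TMM scaling, with all 12 libraries in 1 robust quasi-likelihood fit and 6 contrasts. Each SE is approximate: the estimate's absolute size over the root of its F statistic. Group levels are mean ± SD of CPM. The script was tested on simulated counts. DESeq2 1.42.0, other scalings, no filter, pairwise fits, a replicate block and leaving out each library were alternatives. Over pairs of replicates, chi-square per degree of freedom was 1.13 to 2.67 for genes with 20 counts or more, above 1 in every pair, and all libraries were kept as separate samples.

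Members and lists were chosen with earlier results of these data known. Named genes are the 10 members; per other list and comparison the 2 called genes highest and 2 lowest in log2 fold change with mean log2 CPM of at least 2, of which the main ones are described; and genes correlating best with the 2 most variable members among genes with mean log2 CPM of at least 5. FBXL5 was named outside these rules, after its values were seen. Lengths and sequences come from GENCODE release 29 (GRCh38), and no coordinates were mixed with the files.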

Additional observations from a re-analysis of the deposited data

Results flagged for a closer look

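The effect of IFNγ differed between irradiated and unirradiated cells, by the test of the interaction, for 3 members and 1 other iron gene. TFRC had an interaction of -0.25 (adjusted p = 2.58e-05, edgeR), with every combo library below every RT library and overlapping IFNG and Untreated libraries. ACO1 had -0.2 (adjusted p = 0.0302, edgeR), with every IFNG library above every Untreated library. IREB2 had -0.21 (adjusted p = 0.0367, edgeR), with every combo library below every RT library. SLC25A37 had 0.28 (adjusted p = 0.00114, edgeR). The calls of ACO1 and IREB2 are the ones that DESeq2 did not make, and that of IREB2 also ended with library totals. Of the 12 fits that left out 1 library, 4 kept the ACO1 call and 1 kept the IREB2 call. The share of all tested genes whose libraries separate in these ways was not counted.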

How the results depend on the processing

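Each of 60 member results was recomputed under up to 18 settings, 1069 values in all. Of these, 1011 kept direction and side of the threshold, 29 lost and 8 gained a call, and 21 changed sign, 0 of them called. The count of members called in the interaction fell to 1 in DESeq2 and to 2 with library totals. As libraries were left out it ran from 1 to 3. It was 1 without Untreated replicate 3, IFNG replicate 1 or any 1 RT or combo library. The cause was not tested. Over all genes DESeq2 called 136 interactions, edgeR 289. As libraries were left out, members called ran from 2 to 3 for IFNG against Untreated, 7 to 7 for RT against Untreated, 5 to 6 for combo against Untreated, 4 to 5 for combo against RT and 7 to 8 for combo against IFNG.

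The sign changes all lay near 0. For IFNG against Untreated, FTL was at -0.042 with library totals and from -0.014 to 0.061 with libraries left out, SLC39A14 at 0.011 without the filter, 0.001 in the pairwise fit and from -0.01 to 0.013, TFRC from -0.032 to 0.001 and SLC11A2 from -0.083 to 0.023. For combo against RT, SLC39A14 was at -0.024 with library totals, and SLC40A1 at 0.005 without the filter, 0.003 in the pairwise fit and from -0.125 to 0.109. For combo against IFNG, ACO1 was at 0.003 and SLC39A14 at 0.008 with library totals, and ACO1 from -0.05 to 0.008 with libraries left out.

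With library totals in place of TMM, higher genes made up 31.1% of the calls in place of 51.6% for IFNG against Untreated, 38% in place of 53.9% for combo against RT and 69.4% in place of 58.1% for the interaction; TFRC was then called lower in IFNG cells (-0.07, adjusted p = 0.0325). Replicate numbers are shared by title only: deviations of same-numbered libraries correlated from -0.113 to 0.171, and 2 of 12 libraries correlated best with their own number. With the replicate block the counts called were 3, 7, 5, 5, 8 and 3, the unblocked counts. At 4 to 16 counts per library, SLC40A1 is limited by depth.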
